A study of Mus musculus with 37 samples.

Results

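The data described here are the levels of 9 genes that encode transcription factors of the developing kidney, ureter and bladder, Pax2, Pax8, Emx2, Tbx18, Tbx2, Tbx3, Lhx1, Osr1 and Tcf21, chosen by name as 9 of the 24421 gene symbols measured. Whole transcriptome sequencing (WTS) of bulk tissue covered 37 libraries from female, wild-type BALB/c mice, which drank either tap water or water with 0.05% BBN, a nitrosamine that causes urothelial carcinoma. BBN was started at 6 to 7 weeks of age and given for about 18 weeks (17 to 20 weeks in the study's methods). Ureters of untreated mice (U) gave 6 libraries, the right and left ureters of 3 mice, and the bladders of the same 3 mice gave 3. BBN-treated mice gave 11 libraries of the cancer side of the upper urinary tract (UT, from 10 mice, with both sides of mouse 5), 7 of the noncancer side (UN) and 10 of the bladder. Among the treated mice, and separately among the untreated mice, libraries with the same number came from the same animal, so UT 4 and UN 4 are opposite sides of treated mouse 4, while U 1R and UT 1 are from different mice. A UN ureter was exposed to the same BBN as the tumor of the other side. It is not a healthy ureter.

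The kidney and ureter arise from the intermediate mesoderm. Pax2, Pax8, Lhx1 and Emx2 act in its epithelium, the nephric duct and the ureteric bud that grows from it. Osr1 marks its early progenitors, Tcf21 acts in the stroma and mesenchyme around the epithelium, and Tbx18 is known for the mesenchyme that becomes the smooth muscle of the ureter. Tbx2 and Tbx3 are closely related T-box repressors, known in the ureter mesenchyme and in many epithelia. The bladder has a different origin, the endoderm of the cloaca with its own mesenchyme.

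In the GRCm38 genome (GENCODE vM21), the paired-box genes were Pax2 at chr19:44756045-44837871 on the plus strand and Pax8 at chr2:24420560-24475599 on the minus strand. The homeobox genes were Emx2 at chr19:59458372-59465357 (plus) and Lhx1 at chr11:84518284-84525535 (minus). The T-box genes were Tbx18 at chr9:87702800-87731260 (minus), Tbx2 at chr11:85832551-85841948 (plus) and Tbx3 at chr5:119670669-119684724 (plus). Osr1, a zinc finger gene, was at chr12:9570116-9581500 (plus), and Tcf21, a basic helix-loop-helix gene, at chr10:22817281-22820174 (minus). The library kit does not mark strand, and all but Lhx1 and Tbx2 overlap a gene annotated on the opposite strand, so reads of these partners cannot be told apart. The count table has rows of its own for Emx2os, for 1700039E22Rik at Pax2 and for 1700022H16Rik at Osr1.

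The levels reported below turn on pairs of paralogs, so a stretch of coding sequence of each pair is shown, taken from the GENCODE transcripts, with differing bases in capitals. The stretches are the most alike 90 coding bases of each pair. They differed at 8 bases between Pax2 and Pax8, within the paired domain, and at 13 bases between Tbx2 and Tbx3, within the T-box.
Pax2: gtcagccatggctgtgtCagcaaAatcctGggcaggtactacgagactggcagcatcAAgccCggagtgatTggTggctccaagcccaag
Pax8: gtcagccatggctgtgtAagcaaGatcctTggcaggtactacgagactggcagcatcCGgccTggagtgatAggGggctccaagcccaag
Tbx2: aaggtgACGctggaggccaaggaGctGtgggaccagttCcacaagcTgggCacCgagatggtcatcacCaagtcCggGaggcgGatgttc
Tbx3: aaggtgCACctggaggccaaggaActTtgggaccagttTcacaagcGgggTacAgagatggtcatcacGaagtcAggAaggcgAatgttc
The longest run shared without a mismatch by the transcripts was 27 bases for Pax2 and Pax8 and 14 bases for Tbx2 and Tbx3. How the authors' counting treated reads that fit both paralogs is not given in the sources used here.

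The promoters of Pax2, Pax8 and Tbx18 are shown as examples of genes called in UT against U: Pax2 and Pax8 were higher, and Tbx18 lower, in UT. Emx2, Tcf21 and Osr1 were also called in that comparison, and no window of theirs is shown. Each is the 250 bases before a RefSeq start in GRCm38.p6, read on the gene's strand, with CpG dinucleotides in capitals. The windows are chr19:44755502-44755751 (plus) for Pax2, 1 of 3 starts in the table, chr2:24475600-24475849 (minus) for Pax8 and chr9:87731261-87731510 (minus) for Tbx18.
Pax2: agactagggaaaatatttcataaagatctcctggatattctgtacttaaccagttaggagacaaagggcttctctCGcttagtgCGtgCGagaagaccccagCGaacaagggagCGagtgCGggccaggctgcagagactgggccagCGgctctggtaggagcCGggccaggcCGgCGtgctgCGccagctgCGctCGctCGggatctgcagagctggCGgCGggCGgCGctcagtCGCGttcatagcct
Pax8: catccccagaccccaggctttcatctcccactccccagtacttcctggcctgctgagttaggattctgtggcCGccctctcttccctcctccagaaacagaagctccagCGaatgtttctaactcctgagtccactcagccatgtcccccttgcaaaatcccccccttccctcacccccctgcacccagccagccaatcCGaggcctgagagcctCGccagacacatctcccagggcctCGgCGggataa
Tbx18: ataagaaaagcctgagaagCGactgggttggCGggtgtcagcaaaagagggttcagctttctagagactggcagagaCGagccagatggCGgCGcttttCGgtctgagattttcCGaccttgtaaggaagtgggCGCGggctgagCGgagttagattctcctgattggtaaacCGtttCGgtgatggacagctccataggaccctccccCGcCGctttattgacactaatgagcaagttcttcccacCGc
The Pax2 window held 20 CpG, the Tbx18 window 15 and the Pax8 window 6, where the median of all 32851 promoters was 6. The 8 windows that RefSeq gives for 6 of the 9 genes had a median of 17.5. A search on both strands for a T-box core (GGTGTGA, in 3.33% of all promoters), a homeodomain core (TAATTA, 4.84%) and a paired-domain core (GTCACGC, 1.78%) found no match in these 8 windows, and an E-box (CAGCTG, in 13% of all promoters) was in 1 of them, the Pax2 window shown.

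Deposited estimated counts were expressed as CPM, counts scaled to a common library total. The totals ranged from 12980008 to 18793560 in U, 14348701 to 16617435 in untreated bladder, 9724542 to 16735797 in UT, 4675081 to 14973904 in UN and 3557697 to 15104379 in BBN bladder, where UN 6 and BBN bladder 3 were the lowest. The tissue labels were checked against cell markers. The summed level of 15 urothelial genes was 26659 to 27927 CPM in untreated bladder and 2204 to 4383 CPM in U, and that of 12 adipocyte genes 535 to 2717 CPM against 57326 to 79277 CPM. UN 2 was low in urothelial RNA, with a sum of 49.2 CPM and 2.88 CPM of the basal keratin Krt5. Kidney genes were abundant in UT 4. Its 23 kidney tubule genes summed to 5000 CPM, and the 18 of them with a median under 1 CPM over the 9 untreated libraries summed to 3524 CPM, against at most 29.2 CPM in the other 10 UT libraries. Umod, the uromodulin gene of the kidney's thick ascending limb, was at 931 CPM in UT 4. Member calls that involve UT or UN are therefore also given without UT 4 and UN 2.

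In untreated tissue the T-box genes set the organs apart in opposite directions. Tbx18 was 7.88-fold higher in U than in bladder, whereas Tbx2 was 5.73-fold and Tbx3 3.64-fold higher in bladder. Tcf21 and Osr1 did not pass the test, and Pax2, Pax8, Emx2 and Lhx1 were below the filter for low counts in both organs. A gene was called at an adjusted p (Benjamini-Hochberg, edgeR's quasi-likelihood test) under 0.1 and a change of at least 2-fold, and SE is the log2 fold change divided by the square root of the test's F. Of the 5 members tested, 1 was called higher in U and 2 lower, where 15.7% of all 15328 genes tested were called higher and 14.3% lower, 30% in all.

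Tbx18 was at 40.4 CPM in the right and 34.0 CPM in the left ureter of untreated mouse 1, at 38.3 and 28.1 CPM in untreated mouse 2, and at 45.5 and 29.1 CPM in untreated mouse 3. In the bladders of these mice it was at 4.67, 6.59 and 6.38 CPM. Each ureter was above each bladder, and the right ureter was the higher in all 3 mice. U over bladder gave a log2 fold change of 2.98 ± 0.18 (SE, adjusted p = 6.69e-08), and 3.02 with 1 value per mouse. Groups did not overlap, with U higher, in 16.1% of all genes tested, and with U lower in 47.3%. In bulk tissue, a smaller share of the cells that express a gene and less of its RNA in each cell cannot be told apart.

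Tbx2 was at 169, 117 and 134 CPM in the 3 untreated bladders, and at 12.6 to 26.6 CPM in U with a median of 16.6 CPM. Tbx3 was at 256, 224 and 304 CPM in untreated bladder, and at 28.3 to 80.0 CPM in U with a median of 58.2 CPM. Neither gene's groups overlapped, and U 3L was the lowest for both. The log2 fold change of U over bladder was -2.52 ± 0.20 (SE, adjusted p = 5.29e-07) for Tbx2 and -1.86 ± 0.22 (SE, adjusted p = 1.29e-05) for Tbx3, and -2.47 and -1.82 with 1 value per mouse. All 15 urothelial markers were called lower in U as well, with a median log2 fold change of -2.41, against -0.02 for all genes tested. So were 5 of 7 mesothelium genes (median -2.20), a list that shares Krt19 and Krt8 with the urothelial one. Of 14 smooth muscle genes 7 were called lower and 1 higher (median -0.99), and all 12 adipocyte genes were called higher. The part of tissue composition in these differences was not tested.

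Tcf21 was at 51.1, 63.3 and 61.1 CPM in untreated bladder and at 25.96 to 51.1 CPM in U, with a median of 45.6 CPM. Osr1 was at 33.7, 39.2 and 29.7 CPM in untreated bladder and at 18.4 to 32.4 CPM in U, with a median of 21.1 CPM. As CPM, both genes were lower in U in 3 of 3 mice. After TMM normalization, which scales each library so that most genes do not differ, the log2 fold change was -0.09 ± 0.18 (SE, adjusted p = 0.689) for Tcf21 and -0.21 ± 0.16 (SE, adjusted p = 0.279) for Osr1. Scaling by library totals alone moved the median of all genes by -0.38, and these values to -0.47 and -0.59, neither of them a change of 2-fold.

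The epithelial factors were near the limit of detection in untreated tissue. Pax8 had 49 counts over the 6 U libraries (0.127 to 0.911 CPM, median 0.509 CPM) and 8 counts over the 3 untreated bladders (0.139, 0.333 and 0.0602 CPM), a ratio of CPM of 3.02 with an exact 95% interval of 1.42 to 7.38. Emx2 had 35 counts in U (0.127 to 0.692 CPM) and 1 in untreated bladder, a ratio of 17.2 (exact 95% interval 2.90 to 700.2). The intervals cover counting error only. Pax2 had 20 counts in U (0.0620 to 0.557 CPM) and 0 in each untreated bladder, which at a limit of 3 counts allows up to 0.196 CPM on average per library. Lhx1 had 2 counts in U and 0 in untreated bladder. Fitted without the filter on low counts, Pax2 and Emx2 had adjusted p of 0.0140 and 0.00725 and were called higher in U, and Pax8 had 0.0589 and was called too, which makes 4 members higher in place of 1. Lhx1 had 0.309.

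**Figure D1:**
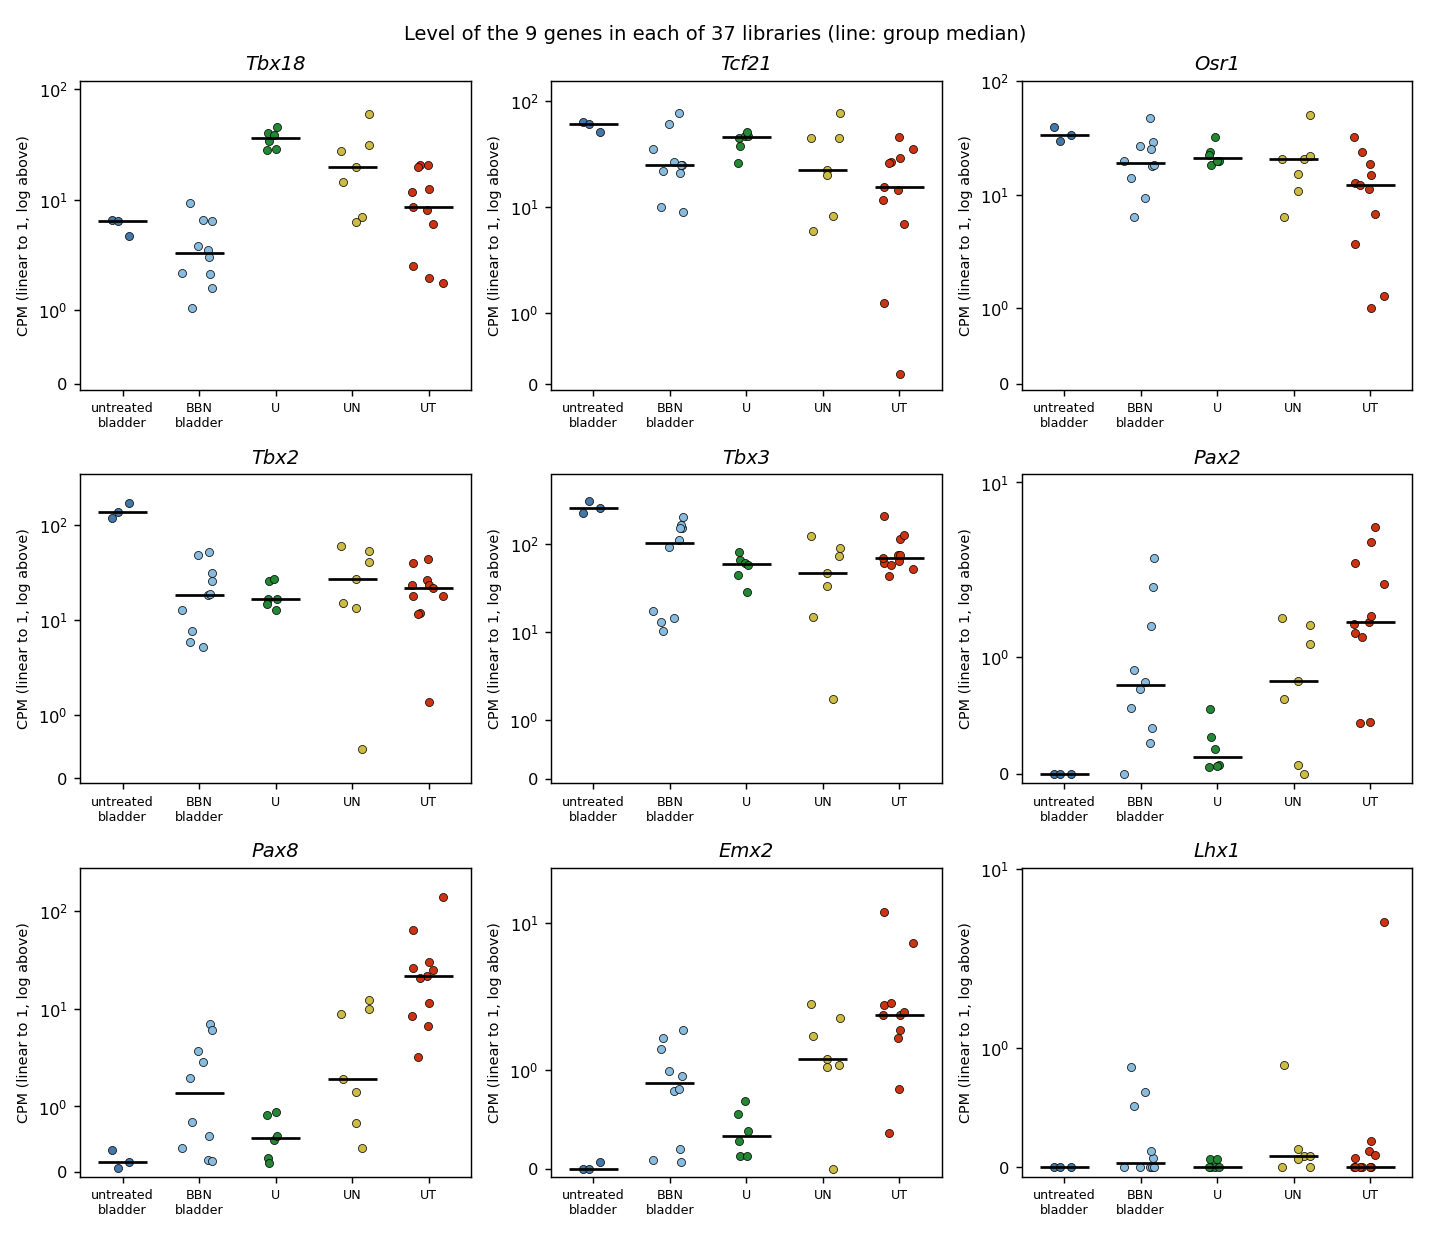
CPM of the 9 genes in each library, in 1 panel per gene, with libraries grouped as U, UN, UT, BBN bladder and untreated bladder and a line at each group's median. The y axis is linear to 1 CPM and logarithmic above. All 6 U points of Tbx18 lie above the untreated bladders and all 6 of Tbx2 and Tbx3 below, and UT 4 is the highest Pax8 point at 139 CPM.

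To describe the T-box genes beside the tissue makeup, their CPM was divided by the summed CPM of a marker list, a description chosen after the values had been seen. Tbx18 per 1000 CPM of 14 smooth muscle genes was 8.85 to 11.5 in U (median 9.54) and 0.371 to 0.606 in untreated bladder (median 0.532). The smooth muscle sum itself was 2496 to 4476 CPM in U and 10524 to 12582 CPM in untreated bladder. With Tbx18 higher and the divisor lower in U, the direction of this ratio was fixed in advance and adds no support. In the BBN-treated tissues the median of this ratio was 7.20 in UN, 8.41 in UT and 0.536 in BBN bladder. Its range in UT, 2.31 in UT 4 to 15.2 in UT 9, took in that of U. BBN bladder 3, with 7.09, and BBN bladder 1, with 2.62, stood above the other BBN bladders, and these are among the libraries with the lowest RNA integrity in the study's quality records. BBN bladder 4, another bladder of lowest RNA integrity there, was at 0.362, within the range of the others.

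Tbx2 per 1000 CPM of the 15 urothelial genes was 3.27 to 7.62 in U and 4.33 to 6.03 in untreated bladder, so the ranges overlapped on this scale although the CPM did not. It was 2.12 to 9.29 in UN (median 5.77), 0.133 to 6.84 in UT (median 2.74) and 0.643 to 3.44 in BBN bladder (median 1.56), and all 10 BBN bladders lay below the 3 untreated ones. The highest UN values of Tbx2 and Tbx3 on this scale are both from UN 2 and rest on its urothelial sum of only 49.2 CPM. Tbx3 on the same scale was 7.36 to 20.04 in U (median 17.3), 8.32 to 11.4 in untreated bladder (median 9.18), 3.70 in UN 3 to 35.3 in UN 2 (median 10.3), 5.05 to 25.3 in UT (median 10.8) and 0.872 to 13.5 in BBN bladder (median 7.86). Tbx2 and Tbx3 are also expressed outside the urothelium, so the divisor is not a count of their cells.

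**Figure D2:**
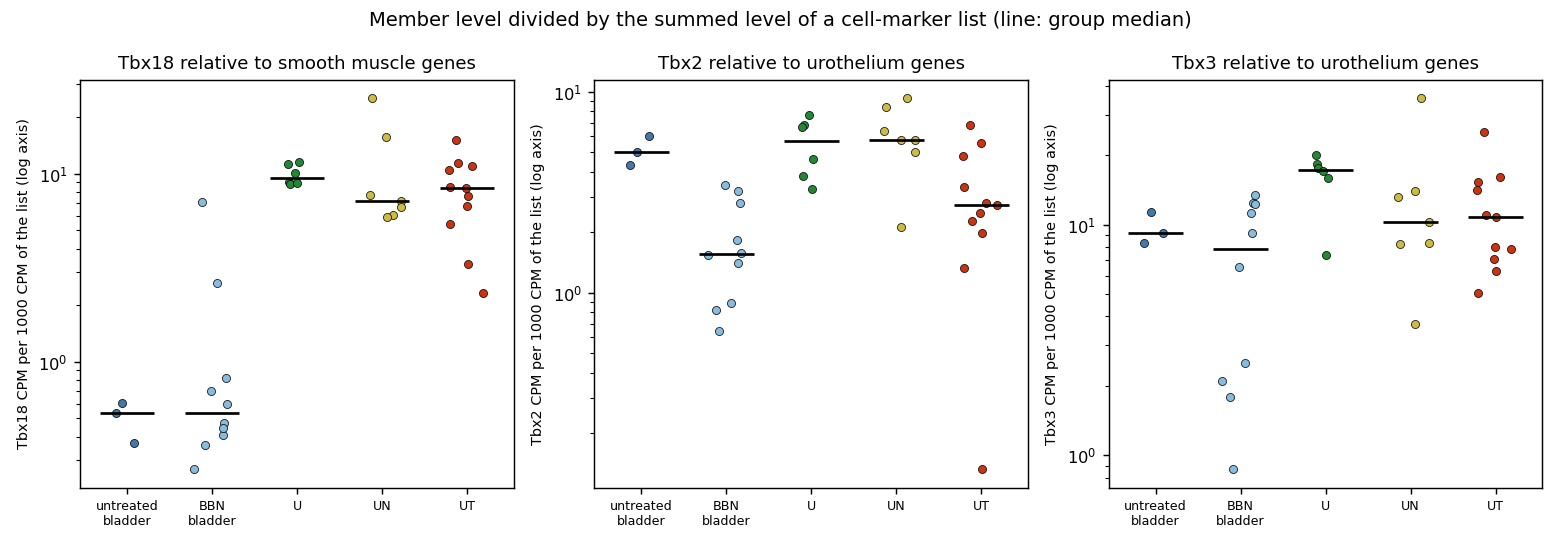
Level of the T-box genes Tbx18, Tbx2 and Tbx3 per 1000 CPM of a cell-marker list in each library, on a log axis, with a line at each group's median. Tbx18 relative to smooth muscle genes separates U (8.85 to 11.5) from untreated bladder (0.371 to 0.606), and Tbx2 relative to urothelial genes does not (3.27 to 7.62 and 4.33 to 6.03).

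In UT the epithelial factors Pax8, Pax2 and Emx2 were higher than in U, and the mesenchymal factors Tbx18, Tcf21 and Osr1 were lower. Tbx2 and Tbx3 did not pass the test, and Lhx1 was below the filter. Of the 8 members tested, 3 were called higher and 3 lower, where 18.6% of all 15662 genes tested were called higher and 12.3% lower, 30.9% in all. Pax2, Pax8 and Emx2 passed the filter on low counts through the BBN-treated ureters, where they are higher, so nothing is read from the number called higher.

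Pax8, a paired-box factor of the nephric lineage used as a marker of kidney tumors, ranged in UT from 3.23 CPM in UT 9 to 139 CPM in UT 4, with a median of 21.8 CPM. The second highest library was UT 10, with 64.9 CPM, and the others were at most 30.1 CPM. The highest of the 6 U libraries was at 0.911 CPM, so the groups did not overlap, which held with UT higher for 14.9% of all genes and with UT lower for 4.38%. UT over U gave a log2 fold change of 5.62 ± 0.91 (SE, adjusted p = 9.97e-05), and 5.07 (adjusted p = 4.59e-05) without UT 4 and UN 2. Other epithelial genes moved in the same comparison. Of the 15 urothelial markers, whose sum was 1697 to 13226 CPM in UT, 6 were called higher and 3 lower. The epithelial adhesion gene Epcam was higher by 3.88 ± 0.72 (SE) on the log2 scale, and the uroplakin gene Upk1a lower (-4.36). With UT 4 in the fit, 8 of 11 kidney tubule genes tested were called higher. Without UT 4 and UN 2, Slc34a1 (4.63) and Scnn1a (3.37) were still called, and Lrp2 (-0.82), Cubn (-0.26) and Fxyd2 (0.25) were not. Of 10 immune cell markers 8 were called higher, with a summed level of 759 to 4063 CPM in UT. The part of the cells these markers stand for in the differences of Pax8, Pax2 and Emx2 was not tested. Umod was at 1.32 CPM in UT 10 and Slc34a1, a transporter of the proximal tubule, at 8.99 CPM, against 514 CPM in UT 4.

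Pax2, the paralog of Pax8, ranged in UT from 0.441 to 5.55 CPM, the highest in UT 5L, with a median of 1.60 CPM, and in U from 0.0620 to 0.557 CPM. Emx2, a homeobox factor of the urogenital epithelium, ranged in UT from 0.367 to 11.7 CPM, the highest in UT 10, with a median of 2.38 CPM and 7.27 CPM in UT 4, and in U from 0.127 to 0.692 CPM. Both ranges overlapped those of U, Emx2 through UT 9 and Pax2 through UT 9 and UT 6 (0.445 CPM). UT 9 was the lowest UT library for Pax8, Pax2 and Emx2. The log2 fold change was 3.06 ± 0.71 (SE, adjusted p = 0.00154) for Pax2 and 2.89 ± 0.70 (SE, adjusted p = 0.00217) for Emx2, and 3.04 and 2.72 without UT 4 and UN 2, both still called. Emx2os, the antisense partner of Emx2, had means of 0.530 CPM in U, 1.57 CPM in UN, 1.67 CPM in UT, 1.33 CPM in BBN bladder and 0.215 CPM in untreated bladder, and the share of its reads in the Emx2 row was not tested.

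Lhx1, which acts in the nephric duct and early nephron, had 71 counts over the 11 UT libraries. Of these, 64 fell in UT 4 (5.08 CPM), the library with abundant kidney genes, and 6 UT libraries were at 0.

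Tbx18 in UT ranged from 1.75 CPM in UT 4 to 20.5 CPM in UT 7, with a median of 8.61 CPM, all below the lowest U library at 28.1 CPM. Tbx18 had a log2 fold change of -2.06 ± 0.45 (SE, adjusted p = 0.00103), and -1.94 without UT 4 and UN 2. The summed level of the smooth muscle genes was 466.4 to 3023 CPM in UT, with a median of 1018 CPM, and 11 of the 14 were called lower than in U. The part of the muscle RNA in the difference of Tbx18 was not tested.

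Tcf21 in UT ranged from 0.144 CPM in UT 2 to 45.4 CPM in UT 6, with a median of 15.5 CPM, and Osr1 from 1.01 CPM in UT 2 to 32.2 CPM in UT 8, with a median of 12.1 CPM. Both ranges overlapped those of U. The log2 fold change was -1.41 ± 0.57 (SE, adjusted p = 0.0479) for Tcf21 and -1.14 ± 0.47 (SE, adjusted p = 0.0531) for Osr1. With 1 value per mouse, in place of both ureters of each untreated mouse, the adjusted p were 0.189 and 0.215 and neither was called, and with library totals alone they were 0.128 and 0.163. Without U 2R, Osr1 had an adjusted p of 0.108. Without UT 4 and UN 2, Tcf21 was at -1.53 and Osr1 at -1.02, both still called. The summed adipocyte level also ran from 57326 to 79277 CPM in U and from 67.9 to 46488 CPM in UT, and its part in these differences was not tested.

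Tbx2 ranged in UT from 1.37 CPM in UT 2 to 43.9 CPM in UT 6, with a median of 21.7 CPM, and its log2 fold change over U was -0.06 ± 0.51 (SE, adjusted p = 0.931). Tbx3 ranged in UT from 42.9 to 203 CPM, the highest in UT 10, with a median of 68.0 CPM, and its log2 fold change was 0.33 ± 0.43 (SE, adjusted p = 0.554).

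**Figure D3:**
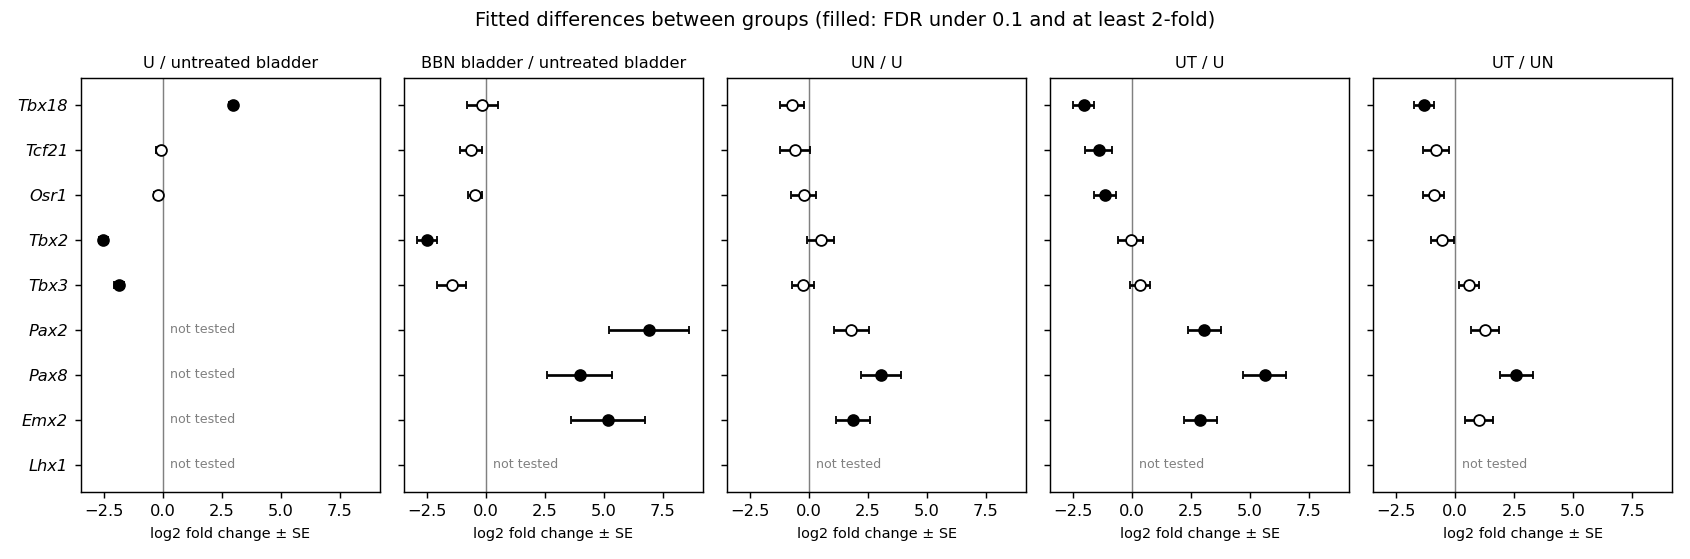
Fitted log2 fold change of each member in the comparisons between groups, 1 panel per comparison, with bars of ± SE. Filled points passed an adjusted p under 0.1 and a change of at least 2-fold, such as Pax8 at 5.62 in UT over U and Tbx2 at -2.52 in U over untreated bladder, and members below the filter have no point.

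In UN, Pax8 and Emx2 were called higher than in U, and no member was called lower, while 6 of the 8 had an adjusted p above 0.1. The background was 12.4% of genes called higher and 1.21% lower, 13.7% in all, and Pax2, Pax8 and Emx2 again passed the filter through the BBN-treated ureters. Pax8 was at 9.96, 0.366, 1.40, 12.3, 1.93, 8.88 and 0.748 CPM in UN 1, 2, 3, 4, 6, 7 and 9. Only UN 2 and UN 9 fell within the range of U. The log2 fold change was 3.03 ± 0.85 (SE, adjusted p = 0.0205) for Pax8 and 1.87 ± 0.72 (SE, adjusted p = 0.0849) for Emx2, which ranged from 0 in UN 2 to 2.82 CPM in UN 7. Without UT 4 and UN 2 they were at 3.23 and 2.09 (adjusted p = 0.00587 and 0.0305). With 1 value per mouse neither was called (adjusted p = 0.213 and 0.353). Of 10 immune cell markers 6 were called higher in the same comparison, with a summed level of 514 to 6816 CPM in UN and 438 to 847 CPM in U, and 2 of 15 urothelial markers were called higher, Epcam (2.84 ± 0.71) and Krt5 (2.36 ± 0.83), and 1 lower. The part of these cells in the differences of Pax8 and Emx2 was not tested. Emx2 was also not called when UN 1, UN 3, UN 6, UN 7 or any of 5 U libraries other than U 2R was left out (adjusted p 0.109 to 0.168).

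Pax2 in UN ranged from 0 in UN 2 to 1.68 CPM in UN 7, and its log2 fold change over U was 1.80 ± 0.73 (SE, adjusted p = 0.103). Leaving out UT 2, UN 2, UT 6, U 1R, UT 9 or UN 9 brought it past the threshold (adjusted p 0.0473 to 0.0999), and without UT 4 and UN 2 the value was 2.01 (adjusted p = 0.0520).

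The other 5 members spread widely in UN, as the cell markers did. Tbx18 was at 59.4, 6.95, 6.28, 31.1, 14.5, 27.8 and 19.8 CPM in UN 1, 2, 3, 4, 6, 7 and 9, so UN 1 was above the range of U, UN 4 within it and the other 5 below it. Tbx2 ranged from 0.457 to 59.0 CPM and Tbx3 from 1.74 to 122 CPM, both lowest in UN 2, the library with little urothelial RNA, and highest in UN 7. Tcf21 ranged from 5.99 to 76.9 CPM and Osr1 from 6.42 to 50.4 CPM, both lowest in UN 6, the shallowest UN library, and highest in UN 1. The smooth muscle sum ranged over the same libraries from 573 CPM in UN 6 to 8243 CPM in UN 1.

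Pax8 was higher in UT than in the UN of the same mouse in 7 of 7 mice, and Tbx18 was lower in 5 of 7 mice, all but mice 3 and 6. Of the 8 members tested, 1 was called higher in UT and 1 lower, where 1.32% of all genes were called higher and 4.26% lower, 5.58% in all. Both genes are in the study's own list of genes that differ between these groups, which was drawn from 10 UT libraries and the 7 UN libraries, 1 UT library fewer than here, so that list is not independent evidence of their direction.

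Pax8 was at 26.5 CPM in UT 1 and 9.96 CPM in UN 1, at 11.5 and 0.366 CPM in mouse 2, at 21.8 and 1.40 CPM in mouse 3, and at 139 and 12.3 CPM in mouse 4. It was at 6.75 and 1.93 CPM in mouse 6, at 20.6 and 8.88 CPM in mouse 7, and at 3.23 and 0.748 CPM in mouse 9. The mean difference of log2(CPM + 1) within mice was 2.14 ± 1.07 (SD, n = 7). The fitted log2 fold change was 2.58 ± 0.70 (SE, adjusted p = 0.0729), and 2.43 with the mouse as a block, where the adjusted p was 0.798 and no gene of any kind was called, with an unadjusted p of 0.000462 for Pax8. Without UT 4 it was 2.04 (adjusted p = 0.0929), and without UT 4 and UN 2 it was 1.84 and not called (adjusted p = 0.154). It was also not called when UT 2, UN 2, UT 5R, UT 5L, UN 6 or UT 10 was left out (adjusted p 0.103 to 0.214).

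The log2 fold change of Tbx18 was -1.33 ± 0.44 (SE, adjusted p = 0.0863), with a mean difference within mice of -1.04 ± 1.56 (SD, n = 7) in log2(CPM + 1). With the mouse as a block it was -1.33 (adjusted p = 0.798, unadjusted p = 0.0396). The call was lost when any 1 of 17 of the 24 ureter libraries was left out (adjusted p 0.102 to 0.217), all but UT 1, UN 3, UT 6, UT 7, UN 7, UT 9 and U 3L, and without UT 4 and UN 2 (-1.35, adjusted p = 0.142). The smooth muscle genes moved the same way, with 9 of 14 called lower in UT. For the other 6 members the log2 fold change lay between -0.92 (Osr1) and 1.26 (Pax2), with adjusted p of 0.186 to 0.469.

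**Figure D4:**
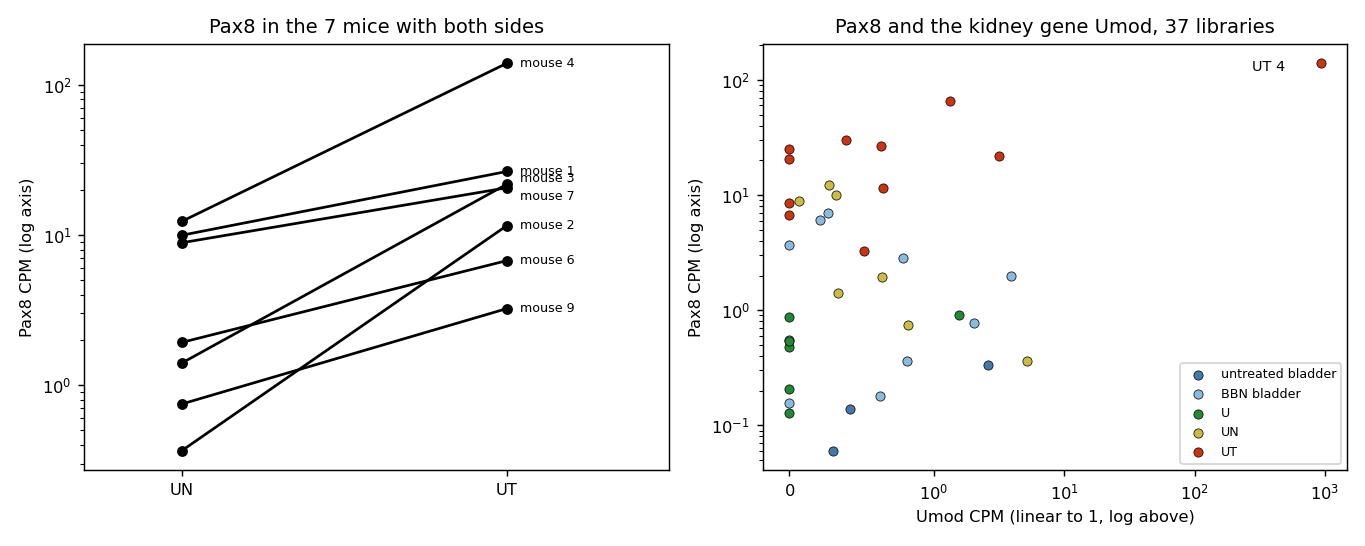
Left, Pax8 CPM on a log axis in UN and UT, with a line for each of the 7 mice that gave both sides, each of which rises toward UT. Right, Pax8 CPM against Umod CPM in all 37 libraries, where UT 4 alone has a high Umod level, 931 CPM, and UT 10 has 64.9 CPM of Pax8 at 1.32 CPM of Umod.

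BBN bladders had less Tbx2 than untreated bladders, and Pax2, Pax8 and Emx2, nearly undetected in untreated bladder, were called higher. Of the 8 members tested, 3 were called higher and 1 lower, where 7.61% of all 18064 genes tested were called higher and 5.74% lower, 13.3% in all. Pax2, Pax8 and Emx2 entered this test through the BBN bladders, where they are higher, so nothing is read from the number called higher. Tbx2 ranged from 5.13 to 51.8 CPM over the 10 BBN bladders, with a median of 18.2 CPM, and all lay below the lowest untreated bladder at 117 CPM. Groups did not overlap, with BBN bladder lower, in 12% of all genes and, with it higher, in 4.98%. BBN over untreated bladder gave a log2 fold change of Tbx2 of -2.49 ± 0.41 (SE, adjusted p = 0.00125). Its 3 lowest libraries, BBN bladders 1, 3 and 4 at 5.13, 5.90 and 7.54 CPM, are those of lowest RNA integrity among the bladders, in the study's quality records, and without these 3 the value was -2.20 (adjusted p = 0.000953). Of 12 fibroblast genes 7 were called lower (list median -1.85) and of 15 urothelial genes 5 (median -1.01), and their part in the difference of Tbx2 was not tested.

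Tbx3 fell into separate levels in BBN bladder. BBN bladders 1, 3, 4 and 6 were at 14.4, 12.9, 10.2 and 17.3 CPM, and the other 6 at 90.4 to 198 CPM, all below the lowest untreated bladder at 224 CPM. The first 3 are the bladders of lowest RNA integrity named above, and the library name of BBN bladder 6 carries a tumor mark that its title does not. The log2 fold change was -1.45 ± 0.61 (SE, adjusted p = 0.143) and missed the threshold, while DESeq2 (adjusted p = 0.0671) and a fit of all 37 libraries (adjusted p = 0.0516) called it lower.

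Pax8 was at 0.157 to 7.02 CPM in BBN bladder, with a median of 1.37 CPM and the highest values in BBN bladders 7 and 10. It had 293 counts against 8 in untreated bladder, a ratio of CPM of 15.1 (exact 95% interval 7.58 to 35.4, counting error only), and an adjusted p of 0.0886, or of 0.117 and not called without the filter on low counts. Pax2 was at 0 to 3.68 CPM, with 139 counts against 0, which is at least 5.79-fold higher than a limit of 3 counts per library allows, and an adjusted p of 0.0214. Emx2 was at 0.0662 to 1.87 CPM, with 90 counts against 1, a ratio of 37.2 (exact 95% interval 6.51 to 1485), and an adjusted p of 0.0504. Of 7 oviduct and uterus epithelium markers tested, Ltf, Sprr2f, Wfdc2 and Lhx9 were called higher in BBN bladder and Hoxa13 lower, while the oviduct gene Ovgp1 was at a mean of 2.24 CPM against 1.42 CPM and did not pass, and 3 of 10 immune markers were called higher. Of 6 oviduct and uterus epithelium markers tested in UT and in UN against U, Ltf, Sprr2f and Wfdc2 were also called higher in both comparisons. Hoxa13 was called lower in UT and did not pass in UN, and Ovgp1 and Msx1 passed in neither. The part of such cells in the values of Pax8, Pax2 and Emx2 was not tested. All 3 member calls rested on 3 untreated bladders. Leaving out any 1 of these took the adjusted p to between 0.102 and 0.105 for Pax2, to between 0.105 and 0.238 for Emx2 and to at most 0.321 for Pax8, and Pax8 was lost without BBN bladder 7, 9 or 10 as well.

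Tbx18 remained low in BBN bladder, at 1.05 to 9.30 CPM with a median of 3.27 CPM (log2 fold change -0.15 ± 0.66, SE, adjusted p = 0.903). Tcf21 was at 9.08 to 77.0 CPM (-0.62 ± 0.47, adjusted p = 0.385) and Osr1 at 6.41 to 47.6 CPM (-0.45 ± 0.31, adjusted p = 0.325). Lhx1 had 14 counts in 10 libraries and was not tested.

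In these mice Tbx18 was again higher in the ureter than in the bladder, and Tbx2 and Tbx3 did not pass the test. UN over BBN bladder had a log2 fold change of 2.41 ± 0.48 for Tbx18 (SE, adjusted p = 0.000463), with UN the higher in 6 of 7 mice, all but mouse 3. It was the only one of the 9 members tested that was called, where 8.69% of all 18974 genes tested were called higher and 9.64% lower, 18.3% in all. With the mouse as a block it was 2.34 (adjusted p = 0.0375), and without UT 4 and UN 2 it was 2.56 (adjusted p = 0.000234). Of the cell markers, 12 of 12 adipocyte genes and 5 of 12 fibroblast genes were called higher and 5 of 14 smooth muscle genes lower, and their part in the difference of Tbx18 was not tested. Tbx2 had a log2 fold change of 0.43 ± 0.46 (SE, adjusted p = 0.540) and Tbx3 of -0.69 ± 0.47 (SE, adjusted p = 0.317).

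UT over BBN bladder had a log2 fold change of 3.56 ± 0.68 for Pax8 (SE, adjusted p = 0.000619), higher in UT in 9 of 10 mice, all but mouse 9. It was 1.60 ± 0.60 for Emx2 (SE, adjusted p = 0.0386) and 1.12 ± 0.43 for Tbx18 (SE, adjusted p = 0.0427), both called higher, where 7.05% of all genes were called higher and 21.9% lower, 28.9% in all. With the mouse as a block, Pax8 remained at 3.48 (adjusted p = 0.00894), Emx2 at 1.53 (adjusted p = 0.113) and Tbx18 at 0.87 (adjusted p = 0.273) were not called, and Osr1 at -1.39 (adjusted p = 0.0981) was called lower. Without UT 4 and UN 2, Pax8 was at 3.02, Emx2 at 1.44 and Tbx18 at 1.25, all still called. Without the block Osr1 was at -0.90 ± 0.37 (SE, adjusted p = 0.0578), short of 2-fold. Emx2 was not called without UT 10 (adjusted p = 0.131), nor Tbx18 without UT 6, UT 7 or UT 9 (adjusted p 0.0827 to 0.107, with a change under 2-fold where the p passed). Tbx18 was also not called with RLE normalization (0.87, adjusted p = 0.139), DESeq2 (0.82, adjusted p = 0.126) or limma-trend, where it was short of 2-fold (0.95, adjusted p = 0.0900). Marker lists moved in the same comparison, with 9 of 19 kidney tubule genes, 10 of 12 adipocyte genes, 6 of 10 immune genes and 5 of 12 fibroblast genes called higher, and 12 of 14 smooth muscle genes and 3 of 15 urothelial genes called lower. The adipocyte sum was 67.9 to 46488 CPM in UT and 128 to 6247 CPM in BBN bladder. Their part in the member values was not tested. Osr1 was called lower without UT 7 or UT 8 (adjusted p 0.0203 to 0.0337), and Tcf21 without UT 6 or BBN bladder 10 (adjusted p 0.0806 to 0.0933).

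Whether BBN moved a gene differently in the 2 organs was tested as the interaction, the difference of UN from U minus that of BBN bladder from untreated bladder. Tbx2 had an interaction of 3.02 ± 0.78 on the log2 scale (SE, adjusted p = 0.0408), the only member called, where 1.76% of all genes were called higher, 0.474% lower and 2.23% in all. Its mean was 18.8 CPM in U and 29.8 CPM in UN, and 140 CPM in untreated bladder and 22.4 CPM in BBN bladder. The call was lost without untreated bladder 1 (2.87, adjusted p = 0.155) or untreated bladder 3 (3.05, adjusted p = 0.120), and with limma-trend (2.60, adjusted p = 0.245), and was kept without UT 4 and UN 2 (3.24, adjusted p = 0.00555). The interaction had a median of 1.53 for the 15 urothelial genes, with 1 called higher, Upk2 (3.86 ± 1.05), and of 1.56 for the 12 fibroblast genes, with 2 called higher, Mfap4 (3.94 ± 0.82) and Col1a2 (2.89 ± 0.73), against -0.04 for all genes, and the part of these cells in the value of Tbx2 was not tested. Tbx3 had an interaction of 1.25 ± 0.79 (SE, adjusted p = 0.502) and Tbx18 of -0.50 ± 0.83 (SE, adjusted p = 0.822). Pax2 had -5.19 ± 1.59 (SE, adjusted p = 0.104), a fitted value that rests on counts of 0 in untreated bladder, and passed the threshold without UN 2, UN 6 or BBN bladder 2, 6 or 7 (adjusted p 0.0634 to 0.0967), and without UT 4 and UN 2 (-4.99, adjusted p = 0.0859).

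By mean CPM, Tbx18 ran from U (35.9 ± 6.79, SD, n = 6) through UN (23.7 ± 18.4, n = 7), UT (10.3 ± 7.28, n = 11) and untreated bladder (5.88 ± 1.05, n = 3) to BBN bladder (3.95 ± 2.65, n = 10). The tests of UN against U (log2 fold change -0.73 ± 0.51, SE, adjusted p = 0.345) and between the bladder groups did not pass. UT and untreated bladder were not compared by a test. Pax8 ran from UT (32.5 ± 39.1) through UN (5.08 ± 5.08), BBN bladder (2.36 ± 2.52) and U (0.522 ± 0.325) to untreated bladder (0.178 ± 0.140). Its test of UN against BBN bladder did not pass (log2 fold change 0.95 ± 0.69, SE, adjusted p = 0.343), with UN the higher in 5 of 7 mice. Pax2 and Emx2 had the same first and last groups as Pax8, at 2.24 ± 1.65 and 3.33 ± 3.31 CPM in UT and at 0 and 0.0232 ± 0.0402 CPM in untreated bladder. Tbx2 was at 140 ± 26.4 CPM in untreated bladder and at means of 18.8 to 29.8 CPM in the other 4 groups. Tbx3 was at 261 ± 39.9 CPM in untreated bladder and at means of 54.1 to 91.4 CPM in the others.

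Lists of developmental genes were counted in the same fits, as lists chosen with earlier results of these data known. A gene low in 1 group passed the filter on low counts only through a group where it was higher, so the numbers called and the medians, which cover the tested genes alone, are descriptions from which nothing is read about a list. In U against untreated bladder, 1 of 4 tested close paralogs of the members was called higher and 2 lower. Osr2, the paralog of Osr1, was at a mean of 23.7 CPM in U and 0.200 CPM in untreated bladder (log2 fold change 7.23 ± 0.54, SE, adjusted p = 3.12e-07), whereas the T-box genes Tbx4 (-4.25 ± 0.28) and Tbx5 (-3.13 ± 0.41) were lower in U. Of 11 nephric duct and ureteric bud genes tested, 1 was called higher and 6 lower, among them Gata3 (-2.70), Grhl2 (-2.57) and Gfra1 (-1.98), a coreceptor for GDNF. The median of the list was -1.38.

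Of 7 nephron genes, 1 was called higher and 4 lower, among them Wnt4 (-2.34) and Hnf4a (-2.32), with a list median of -1.06. Of 19 ureter mesenchyme genes, 2 were called higher and 5 lower, among them Foxf2 (-3.50), Id4 (-2.79) and Bmp4 (-1.74), with a median of -0.70. Of 14 stroma and bladder mesenchyme genes, 1 was called higher, Foxc2 (3.80 ± 0.53), and 7 lower, with a median of -1.15. Among these, Tbx20 was at 0.144 CPM in U and 15.0 CPM in untreated bladder (-6.51 ± 0.41, adjusted p = 9.48e-08), Hand2 at 0.0532 and 3.48 CPM (-5.45 ± 0.46) and Hoxd13, a gene of the posterior body axis, at 0.542 and 5.21 CPM (-2.87 ± 0.50).

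**Figure D5:**
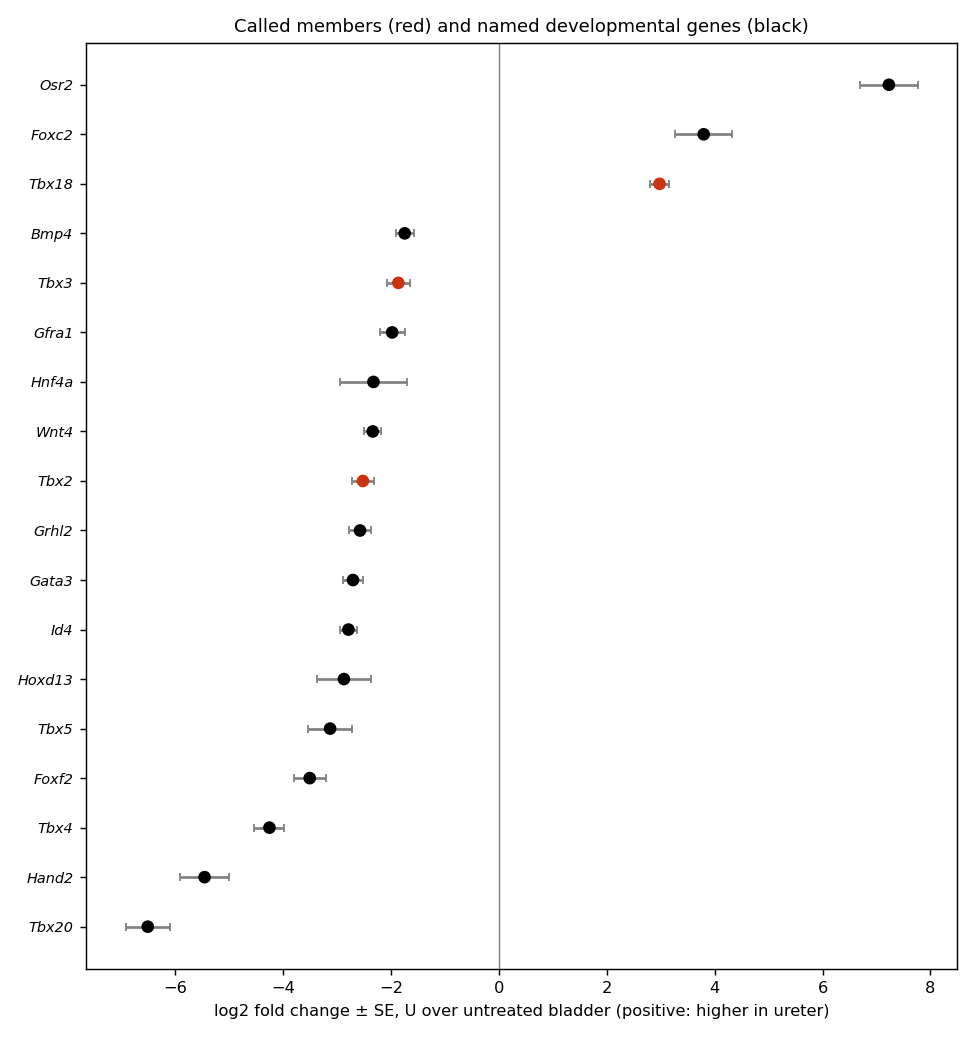
Log2 fold change of U over untreated bladder, with bars of ± SE, for the called members (red) and the called genes of the developmental lists that are named in the text (black), where positive values are higher in ureter. Osr2 (7.23), Foxc2 (3.80) and Tbx18 (2.98) lie to the right, and Tbx20 (-6.51) and Hand2 (-5.45) farthest to the left.

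In UT against U, 5 of 13 nephric duct genes were called higher and 1 lower, among those higher Etv4 (4.00 ± 0.81) and Grhl2 (2.40 ± 0.61). Only 10 of the 19 nephron genes were tested, and 5 were called higher, among them Irx2 (4.68 ± 0.98), Hnf4g (3.64 ± 0.97) and Wnt4 (2.78 ± 0.58). Of these, Irx2 (mean 0.0751 CPM in U), Hnf4g (0.142 CPM) and Etv4 (0.295 CPM) were low in U, and Wnt4 was at 6.65 CPM. Cdh16 (7.75) and Hnf4a (5.51) led these lists with UT 4, where Cdh16, a cadherin of the kidney tubule, was at 439 CPM. Without UT 4 and UN 2, Cdh16 was below the filter and Hnf4a was at 1.46 (adjusted p = 0.104), while Etv4 (4.08), Grhl2 (2.42), Irx2 (4.43), Hnf4g (3.40) and Wnt4 (2.77) were still called higher. Of 19 ureter mesenchyme genes 5 were called higher and 6 lower (median -0.24), led by Myocd, the smooth muscle coactivator, at -3.01 ± 0.55. Aldh1a2, an enzyme of retinoic acid synthesis (1.86 ± 0.66), and Foxf2 (1.74 ± 0.76) were the next by size and were higher, and Gli2 (-1.60 ± 0.50) was lower. Of 10 stroma genes 1 was called higher and 5 lower (median -0.81), among them Hoxa13 (-2.0013), Isl1 (-1.49), Foxc2 (-1.43) and Meis1 (-1.32). Osr2 was also lower in UT (-1.95 ± 0.62, adjusted p = 0.0140), the only one of 3 close paralogs called.

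In UN against U, Wnt4 (2.76 ± 0.61), Irx2 (4.47 ± 1.01), Hnf4g (3.47 ± 1.02) and Tfap2a (2.05 ± 0.55) were called higher of 10 nephron genes, and Etv4 (3.47 ± 0.82), Wnt9b (2.09 ± 0.82) and Sox9 (1.61 ± 0.51) of 13 nephric duct genes. Of these 7, Wnt4 and Sox9 (3.26 CPM) had a mean above 1 CPM in U. UN and UT were each compared with the same U libraries. In UT against UN, none of the 10 nephron genes was called, and of the 19 ureter mesenchyme genes Myocd (-1.98), Axin2 (-1.61), Gata6 (-1.56) and Gli1 (-1.13) were called lower, with a list median of -0.19.

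In BBN against untreated bladder, Tfap2a (4.55 ± 0.61), Irx2 (4.07 ± 0.99) and Wnt4 (1.33 ± 0.34) were among 4 called higher of 12 nephron genes tested from the list of 19. In untreated bladder Wnt4 was at a mean of 43.9 CPM, and Tfap2a and Irx2 were at 0.315 and 0.348 CPM. Osr2 was called higher as well, at a mean of 4.73 CPM (4.58 ± 1.46, adjusted p = 0.0637). Of 13 nephric duct genes, Etv4 (3.53 ± 0.95) and Sox9 (2.06 ± 0.46) were called higher and 3 lower, among them Gfra1 (-3.45 ± 0.62) and Gata3 (-2.08 ± 0.56). In UT against BBN bladder 9 of 14 stroma and bladder mesenchyme genes were called lower and 1 higher, among them Hoxd13 (-6.94 ± 0.92), Hand2 (-6.14 ± 0.70) and Tbx20 (-4.81 ± 0.56), and in UN against BBN bladder 5 were called lower and 1 higher, with Hand2 at -6.53 ± 0.93.

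Over the 24 ureter libraries, the genes whose log2(CPM + 1) followed each member most closely were named by Pearson's r, as a description without a test, since these libraries share their groups and tissue makeup. For Tbx18 they were Asb2 (r = 0.966), the smooth muscle myosin gene Myh11 (0.963) and Ric3 (0.958). For Tcf21 they were Hpgd (0.923), Pdlim3 (0.915) and Pgm5 (0.913), and for Osr1 Penk (0.906), the dermatopontin gene Dpt (0.903) and Cd209b (0.899). For Tbx2 they were Bcl2l14 (0.912), Ildr1 (0.901) and the urea transporter gene Slc14a1 (0.880), and for Tbx3 Plch2 (0.963), Atp8b1 (0.951) and the chloride channel gene Ano1 (0.9505). For Pax8 they were Misp (0.908), Syne4 (0.908) and Nme7 (0.901), for Pax2 Tjap1 (0.935), Luzp1 (0.927) and Lpin2 (0.925), and for Emx2 Celsr1 (0.909), Aldoc (0.905) and Tfap2a (0.893). Lhx1 did not pass the filter and was not ranked.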

How the data were processed

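The authors aligned the reads to GRCm38/mm10 and deposited a table of estimated counts for each gene symbol without normalization, in which 21.1% of the nonzero values were fractional. The submitters' processing notes name TopHat2 2.1.1 and Cuffdiff 2.2.1, and the program that counted these values is not given in the sources used here. CPM was computed from the values as deposited and the tests from values rounded to whole numbers.

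Groups were tested with edgeR 4.0.16 in R 4.3.3 (TMM, filterByExpr, quasi-likelihood), with p adjusted over all genes tested, in 4 fits: U with untreated bladder (9 libraries), all ureters (24), all bladders (13) and all 37 libraries for ureter against bladder after BBN and for the interaction. DESeq2 1.42.0 and limma 3.58.1 were alternatives. On counts simulated from the means of each fit, the procedure was tested before use. The outcome is not given here, so nothing is read from that test about the calls. Figures were drawn with matplotlib 3.10.9 in Python 3.11.15. The 9 genes were named in all comparisons, and of each list up to 4 called genes with the largest change. Some genes that met this rule are not reported here. Members and lists were chosen with earlier results of these data known. The alternatives without UT 4 and UN 2 and with library totals alone, and the ratios to marker lists, were chosen after seeing the data.

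Within the treated and within the untreated mice, a shared number marks the same animal (numbers 1 to 3 name different animals in these 2 sets), so the mouse was used as a block as an alternative. After subtraction of group means, same-mouse libraries correlated with a median r of 0.0053 (U and untreated bladder), -0.0064 (UT and UN), -0.113 (UN and BBN bladder) and 0.105 (UT and BBN bladder). Libraries of different mice had medians of -0.029, -0.0088, 0.144 and -0.0052 in the same order. Single same-mouse pairs ran from -0.136 to 0.152, from -0.138 to 0.665, from -0.404 to 0.631 and from -0.158 to 0.520. Right and left ureters of an untreated mouse share an animal, so 1 value per mouse was also tested. The closest pair of libraries in a group had a chi-square of 7.36 per degree of freedom, so none was treated as a duplicate. Each library is 1 tissue sample, and 3 untreated mice limit the precision of both untreated groups.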

Additional observations from a re-analysis of the deposited data

Results flagged for a closer look

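In 27 sets of values, each of 9 genes in a group of 4 to 10 libraries, 2 values stood farther from their neighbours than Dixon's 95% limit, where chance flags about 1 in 20. Lhx1 in UN 6 was at 0.892 on the scale of log2(CPM + 1), and its gap to the nearest UN library was 0.774 of the group's range. It had 0.856 CPM, which is 4 counts in the shallowest UN library, and the next was UN 9 at 0.150 CPM. Tbx2 in UN 2 was at 0.543 on the same scale with a gap of 0.616 of the range, and had 0.457 CPM against 13.4 CPM in UN 9, the next lowest. UN 2 also had the lowest urothelial sum of the group, 49.2 CPM.

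The effect of BBN on Tbx2 differed between ureter and bladder by the test of the interaction (3.02 on the log2 scale, adjusted p = 0.0408, edgeR's quasi-likelihood test). The range of the adjusted p over its 34 alternatives was 0.00495 to 0.245.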

How the results depend on the processing

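Over all alternatives, 1761 values of single members kept their side of the threshold, 33 newly passed it, 87 no longer passed it and none changed direction as a called value. Some values that were not called did change sign, such as Tbx2 in UN against U, at 0.49 and at -0.10 in its lowest alternative. In U against untreated bladder, Tbx18, Tbx2 and Tbx3 were called in all 17 alternatives. The number of members called higher there was 1, and 4 without the filter on low counts and 3 in a fit of all 37 libraries. In UT against U, 3 members were called lower, and 1 with 1 value per mouse or with library totals alone, and 3 higher, and 4 without the filter or in the fit of all 37 libraries. In UN against U, 2 were called higher, 3 with DESeq2, library totals alone, without UT 9 or without UT 4 and UN 2, 1 with limma-trend, without the filter, in the fit of all 37 libraries or without the 4 libraries of lowest RNA integrity, and 0 with 1 value per mouse (2556 of 16330 genes had an unadjusted p under 0.05). In UT against UN, 1 was called higher and 1 lower, and 0 and 0 with limma-trend (3979 genes with an unadjusted p under 0.05), the mouse as a replicate block (624), 1 value per mouse (3197), UT and UN alone (2810), library totals alone (3412), without the 4 libraries of lowest RNA integrity (2772) or without UT 4 and UN 2 (2878), and 0 lower in the fit of all 37 libraries (4007). DESeq2 called both. In BBN against untreated bladder, 1 was called lower and 2 with DESeq2 or the fit of all 37 libraries, and 3 higher, but 2 without the filter on low counts or with library totals alone and 1 with limma-trend. In UT against BBN bladder, 0 were called lower (7796 with an unadjusted p under 0.05), but 2 with RLE normalization, DESeq2 or limma-trend and 1 with the replicate block or without the 4 libraries of lowest RNA integrity, and 3 higher but 1 with the replicate block and 2 with RLE normalization, DESeq2, limma-trend or without UT 9. The interaction was called higher for 1 member but for 0 with limma-trend (2188), and lower for 0 (2558), but for 1 with RLE normalization, DESeq2, without BBN bladder 6 or without UT 4 and UN 2. The replicate block changed no other call.

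With each library left out in turn, the members called higher numbered 1 to 2 in U against untreated bladder (2 without untreated bladder 2), 3 to 3 in UT against U, 1 to 3 in UN against U, 0 to 1 in UT against UN, 0 to 3 in BBN against untreated bladder, 1 to 1 in UN against BBN bladder, 2 to 3 in UT against BBN bladder and 0 to 1 in the interaction. Those called lower numbered 2 to 2, 2 to 3, 0 to 0, 0 to 1, 1 to 1, 0 to 0, 0 to 1 and 0 to 1 in the same order.

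The counts over all genes, the background above, moved too. In UT against UN, 207 genes were called higher and 667 lower, but 0 and 0 with the replicate block or UT and UN alone, 4 higher without UT 5L and 1 lower without UT 2, and up to 618 higher without UN 7 and 1250 lower without UT 9. The extremes elsewhere were 1254 (2404 higher) and 3382 (2188 lower) in U against untreated bladder, 150 (1949 higher), 10 and 452 (190 lower) in UN against U, 528 and 4668 (1374 higher) and 505 (1036 lower) in BBN against untreated bladder, 876 (1649 higher), 585 and 3660 (1829 lower) in UN against BBN bladder, 582 (1337 higher), 618 and 6401 (4151 lower) in UT against BBN bladder, and 109 (333 higher), 18 and 474 (90 lower) in the interaction. Library totals alone changed the share of calls that were higher from 52.4% to 32.7% in U against untreated bladder, from 60.3% to 73.9% in UT against U, from 23.7% to 80.8% in UT against UN and from 24.4% to 34.6% in UT against BBN bladder, and moved the median log2 fold change of all genes by -0.38, 0.28, 0.22 and 0.14, and by -0.28 in BBN against untreated bladder. RLE changed the share from 47.4% to 35.8% in UN against BBN bladder and from 78.7% to 66.2% in the interaction, with median shifts of -0.13 and -0.19. Apart from what is said of single libraries and of fewer samples, the cause of these moves was not tested. Depth limits Pax2, Emx2, Pax8 and Lhx1 in untreated tissue, where 3 counts are 0.193 CPM per library in U and 0.196 CPM in untreated bladder.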
